A study of Homo sapiens with 4 samples.

Results

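The genes examined here encode the replication-independent histone variants, 9 of the 58735 genes in the deposited expression table. They were picked by name, as the rows whose Ensembl identifiers carry the symbols H1-10, H2AX, H2AZ1, H2AZ2, H2AJ, H3-3A, H3-3B, MACROH2A1 and MACROH2A2 in GENCODE release 44. The rule uses no measured value, although the list was drawn up with earlier results of these data known. RNA was sequenced from cells labelled NB4, a human line established from acute promyelocytic leukemia, in 2 untreated control libraries and 2 libraries of cells given GNE-987 (spelled GNE987 in the labels) at 25 nM for 24 h, the dose and time being those of the study's figure legends. GNE-987 is a bifunctional degrader that brings BET bromodomain proteins to a ubiquitin ligase. No source used here says that the libraries of a group came from separate cultures, so the P values measure only the spread between these libraries, which may be technical.

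Nucleosomes wrap DNA around an octamer of the core histones H2A, H2B, H3 and H4, and linker histone H1 binds where the DNA enters and leaves. Most histone protein is made in S phase from clustered genes whose mRNAs end in a stem-loop and carry no poly(A) tail. The variants studied here are instead made throughout the cell cycle from single genes elsewhere in the genome, mostly as polyadenylated mRNA, and are put into chromatin independently of replication by their own chaperones. H3.3 marks transcribed genes and telomeric repeats, H2A.Z marks promoters, H2AX is phosphorylated around DNA breaks, and macroH2A is known from repressed chromatin such as the inactive X chromosome.

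Most of the granulocyte markers expected of the label were low in control cells. Of 11 promyelocyte and granulocyte genes, 2 were at 1 FPKM or more in all 4 libraries. These were SPI1, at 7.52 and 5.68 FPKM in control, and AZU1, at 2.07 and 2.1 FPKM. In control cells MPO stood at 0.0246 and 0 FPKM, and ELANE and CTSG were listed at 0. Of 12 erythroid and megakaryocyte genes, 9 reached 1 FPKM in all 4, with GATA1 at 124 and 122 FPKM in control and 15.1 and 12.5 FPKM with GNE-987. Summed over the lists, the granulocyte genes went from 11.1 and 9.68 FPKM in control to 32.6 and 29.8 FPKM with GNE-987, the erythroid and megakaryocyte genes from 465 and 431 to 860 and 745 FPKM, and 4 lymphoid genes from 0.936 and 0.95 to 23.7 and 22.1 FPKM. The part of these differences in the results on histone variants was not tested. FPKM scales the fragments of a gene by its length and by the size of the library, so it is a level per length that can be compared between genes. The reads on genes numbered 19109987 to 19304224 in the control libraries and 12363446 to 12867368 in the GNE-987 libraries, so low values are less precise in the treated group.

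The deposited FPKM values lay on a scale on which the median ratio of a gene to its mean over libraries was equal in all 4 libraries, not on one set by the total of reads, and the choice of scaling matters for every fold change below. On the deposited scale the median log2 fold change of all 16668 tested genes was 0.17. It was -0.58 when the libraries were scaled to the total of their reads, -1.59 when scaled to GAPDH, which itself went from 398 and 432 FPKM to 1500 and 1500 FPKM, and -0.24 after quantile normalization. In these bulk samples, fewer cells of a type and less RNA per cell cannot be told apart, and a change in the total RNA of a cell cannot be seen.

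On the deposited scale 5 of the histone variant genes were higher with GNE-987 and none was lower. H1-10, H3-3B, H3-3A and H2AX, all abundant in control cells, rose between 3.93-fold and 12.3-fold, and MACROH2A2 rose from near absence. H2AZ1, H2AZ2 and MACROH2A1 were 1.22-fold, 1.76-fold and 1.5-fold higher, under the 2-fold limit, and H2AJ was too low to be tested. A gene was called by the study's own limits, an unadjusted P value under 0.05 with a fold change over 2 or under 0.5, in limma on log2(FPKM + 0.1). A filter at a mean of 0.5 FPKM over the 4 libraries removed H2AJ. MACROH2A2 passed that filter only through the libraries where it was high, so it had to differ. Of the other 7 genes, which were above 0.5 FPKM in every library, 4 were called higher and 0 lower, and all 8 tested fold changes were above 0 with unadjusted P values under 0.05. Among all tested genes, 33.6% were called higher and 24.9% lower, and among protein-coding genes 24% were higher and 31.7% lower. With adjusted P values under 0.05 in place of unadjusted ones, 33.2% of all tested genes and the same 5 variants were higher. The median log2 fold change of the 8 tested variant genes was 2.03, beside 0.17 for all tested genes. All 9 genes had both GNE-987 libraries above both control libraries. Among all tested genes, a set that leaves out H2AJ, 47.5% had both above and 41.6% both below. Scaled to total reads, 5 variants were still higher and 0 lower, where 25% of all tested genes were higher and 40.0% lower. Scaled to GAPDH, 2 were higher and 3 lower, where 18.2% of all tested genes were higher and 58.4% lower. After quantile normalization, 3 were higher and 1 lower, where 25.4% of all tested genes were higher and 32.8% lower.

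**Figure D1:**
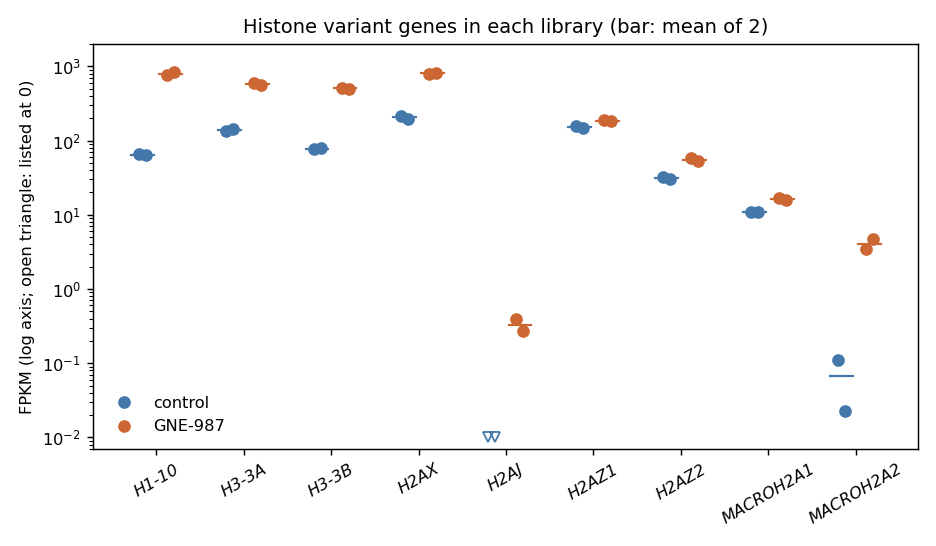
Expression of the 9 histone variant genes in FPKM on a log axis. Each point is 1 library (blue control, orange GNE-987), each bar is the mean of 2, and open triangles mark genes listed at 0. The orange points lie above the blue ones for every gene, closest for H2AZ1 (147 and 157 against 181 and 190 FPKM) and, among genes above 0 in all libraries, farthest apart for MACROH2A2.

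The promoters of the genes that the results turn on are shown first, because they differ in a feature that the choice of genes did not use. Each line holds the 250 bases before the transcription start on the gene's own strand, from RefSeq on GRCh38.p14, with matches on either strand to CCAAT, to TATAAA and to GGGCGG in capitals (a match on the other strand appears as its reverse complement). The motif CACGTG and the motif TGACGTCA were searched as well, matches may overlap, and a match is only a run of letters, not a bound site.
H1-10 (chr3:129316287-129316536, minus strand): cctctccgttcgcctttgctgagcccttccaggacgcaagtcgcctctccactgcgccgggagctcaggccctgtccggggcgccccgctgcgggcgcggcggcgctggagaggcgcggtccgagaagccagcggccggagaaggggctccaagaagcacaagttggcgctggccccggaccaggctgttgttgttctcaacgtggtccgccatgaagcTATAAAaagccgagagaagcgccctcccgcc
H2AX (chr11:119095466-119095715, minus strand): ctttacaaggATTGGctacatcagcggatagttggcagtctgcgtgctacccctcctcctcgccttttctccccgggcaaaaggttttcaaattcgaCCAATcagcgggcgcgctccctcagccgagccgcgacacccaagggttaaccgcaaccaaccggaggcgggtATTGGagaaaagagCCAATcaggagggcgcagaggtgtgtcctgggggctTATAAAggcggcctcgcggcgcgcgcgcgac
H3-3B (chr17:75779780-75780029, minus strand): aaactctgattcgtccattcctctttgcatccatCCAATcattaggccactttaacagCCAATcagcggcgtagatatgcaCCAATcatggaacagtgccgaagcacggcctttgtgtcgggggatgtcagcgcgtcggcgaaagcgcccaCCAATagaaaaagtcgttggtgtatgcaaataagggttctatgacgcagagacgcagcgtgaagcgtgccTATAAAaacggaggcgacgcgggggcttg
H3-3A (chr1:226062466-226062715, plus strand): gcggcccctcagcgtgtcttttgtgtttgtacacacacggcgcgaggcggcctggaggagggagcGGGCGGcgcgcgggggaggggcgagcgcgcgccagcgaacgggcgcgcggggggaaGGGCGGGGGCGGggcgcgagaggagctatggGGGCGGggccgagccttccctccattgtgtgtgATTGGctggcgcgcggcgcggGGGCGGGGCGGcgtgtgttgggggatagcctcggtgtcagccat
H2AZ1 (chr4:99950276-99950525, minus strand): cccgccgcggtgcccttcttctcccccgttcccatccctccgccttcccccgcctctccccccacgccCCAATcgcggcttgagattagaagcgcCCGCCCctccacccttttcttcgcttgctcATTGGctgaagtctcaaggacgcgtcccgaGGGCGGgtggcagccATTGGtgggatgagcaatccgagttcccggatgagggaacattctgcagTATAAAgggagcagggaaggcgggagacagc

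TATAAA began 31 bases before the start of H1-10, H2AX and H2AZ1 (position -31) and 29 bases before that of H3-3B (position -29), and it was not found in the other 5 promoters. Over 35114 RefSeq promoters of the same length, 10.7% hold it at any position and on either strand. The share that hold it at these positions is not given here. CCAAT occurred 4 times in H2AX, H2AZ2 and H3-3B, 3 times in H2AZ1 and H2AJ and 1 time in H3-3A, and not in H1-10, MACROH2A1 or MACROH2A2. It is present at least 1 time in 32.0% of all promoters and at least 3 times in 2.93%. The promoter of H3-3A held GGGCGG 6 times, a motif found in 42.6% of promoters, and no variant promoter held CACGTG (6.35% of promoters) or TGACGTCA (1.65%). Of the genes with TATAAA, H1-10 (log2 fold change 3.62), H3-3B (2.71) and H2AX (1.98) were called higher on the deposited scale and H2AZ1 (0.29) was not. Of those without it, H3-3A (2.08) and MACROH2A2 (4.69) were called higher, H2AZ2 and MACROH2A1 were not, and H2AJ was not tested. The part of the motif in these changes was not tested.

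H1-10 encodes a linker histone that binds between nucleosomes and is made through the cell cycle, from a gene of 1 exon on chromosome 3 (129314771 to 129316286, minus strand, GRCh38). Its level was 65.5 and 63.9 FPKM in control, against 758 and 832 FPKM after GNE-987. Both treated libraries were thus far above both controls, and the mean rose 12.3-fold, from 64.7 ± 1.14 to 795 ± 52.8 FPKM (SD, n = 2 per group). The log2 fold change was 3.62 (SE 0.0612, adjusted P = 9.97e-05, limma with Benjamini-Hochberg adjustment). H1-10 ranked 470 and 473 by FPKM among all genes in control and 95 and 84 after GNE-987. It remained called under every scaling, at log2 2.83 by total reads, 2.29 by quantiles and 1.76 by GAPDH, that is 3.44, 3.40, 2.54 and 3.36 above the median of all genes on the deposited, total, quantile and GAPDH scales.

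A noncoding gene, H1-10-AS1, overlaps H1-10 on the opposite strand. It was at 0.14 and 0.251 FPKM in control, against 1.89 and 1.29 FPKM after GNE-987, far below H1-10 in each library. The library kit named in the labels does not mark strand, so the reads of the overlap cannot be assigned to one of the genes.

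H3-3A and H3-3B encode the same H3.3 protein, the H3 variant of transcribed genes and telomeres, from unlinked genes of 4 exons. H3-3A (chromosome 1, 226061851 to 226072019, plus strand) was at 133 and 144 FPKM in control, against 601 and 569 FPKM after GNE-987. H3-3B (chromosome 17, 75776434 to 75785893, minus strand) measured 76.4 and 78.6 FPKM in control, against 514 and 502 FPKM after GNE-987. Neither gene had overlapping groups. The mean of H3-3A rose 4.22-fold (log2 2.08, SE 0.0595, adjusted P = 0.000167, limma) and that of H3-3B 6.55-fold (log2 2.71, SE 0.0393, adjusted P = 9.61e-05, limma).

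The H3.3 genes kept their calls when libraries were scaled to total reads, at log2 1.29 for H3-3A and 1.92 for H3-3B. Scaled to GAPDH, neither passed the fold limit, at 0.22 and 0.86. After quantile normalization H3-3B was still called, at 1.44, and H3-3A was not, at 0.51. Relative to the median of all genes, H3-3A stood at 1.90, 1.87, 1.82 and 0.75 on the deposited, total, GAPDH and quantile scales, and H3-3B at 2.54, 2.5, 2.45 and 1.68.

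The ratio of the H3.3 genes within a library does not depend on any scaling that multiplies the whole library. H3-3A was 1.75 and 1.83 times H3-3B in control, against 1.17 and 1.13 times after GNE-987. The balance moved toward H3-3B, whose share of the summed H3.3 FPKM was 36.4% and 35.3% in control and 46.1% and 46.9% with GNE-987. The log2 ratio differed by -0.63 between groups, from 0.84 ± 0.0477 to 0.20 ± 0.0317 (SD, n = 2 per group). The groups did not overlap, and the exact permutation test gave P = 0.333, the smallest that 2 against 2 libraries can give.

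The H3.3 genes can be told apart in short reads because they differ at the DNA level while coding for the same protein. The first 120 coding bases of each, from GENCODE release 44, are shown with the bases that differ between them in capitals.
H3-3A: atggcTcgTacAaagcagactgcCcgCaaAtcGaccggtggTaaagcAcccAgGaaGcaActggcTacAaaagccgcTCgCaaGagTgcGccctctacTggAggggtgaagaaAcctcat
H3-3B: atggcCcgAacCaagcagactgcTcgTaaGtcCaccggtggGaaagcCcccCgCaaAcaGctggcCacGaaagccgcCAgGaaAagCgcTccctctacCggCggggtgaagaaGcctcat

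Over all 408 coding bases, 88 positions differed, 77 of them at the third base of a codon, and the longest run without a difference was 14 bases. Reads of H3-3A and H3-3B were therefore separable along the coding sequence. Copies of H3-3A elsewhere were not. The processed pseudogene H3P6 is annotated with 411 bases, and all 411 occur as 1 unbroken run in the H3-3A mRNA, against a longest shared run of 14 bases with H3-3B.

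H3P6 was listed at 151 and 140 FPKM in control, against 633 and 639 FPKM after GNE-987, close to H3-3A in level and in change (log2 2.13, SE 0.0523, adjusted P = 0.00014, limma). Its reads came to 14.8% and 12.7% of those of H3-3A in control and to 13.7% and 14.7% after GNE-987. Like H3-3A, it lost its call when scaled to GAPDH (0.27) and after quantile normalization (0.50). H3P16, which shares a run of 198 bases with H3-3A, was at 11.9 and 12 FPKM in control, against 64.3 and 65.3 FPKM after GNE-987. Reads from such copies cannot be assigned with certainty, so the level of H3-3A is uncertain to that extent. In total, 47 H3 pseudogenes, some of them copies of other H3 genes, were in the table. Of these, 8 were tested and 7 were higher, while 33.6% of all tested genes were higher. Among the 7, H3P26, H3P5, H3P42 and H3P1 were at or near 0 in control. They passed the filter only through the GNE-987 libraries, so they had to differ. Over all 47, reads came to 7.73% and 6.94% of the summed reads of H3-3A and H3-3B in control and to 6.77% and 7.15% after GNE-987.

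UNK overlaps part of the H3-3B annotation on the opposite strand, and went the other way, from 5.30 and 4.82 FPKM in control to 2.60 and 2.24 FPKM with GNE-987 (log2 -1.04, adjusted P = 0.00258, limma). UNK lost its call, by the fold limit, without control replicate 1 (-0.97), without GNE-987 replicate 2 (-0.94) and with a pseudocount of 1 (-0.83). H3-3A-DT, a noncoding gene near the start of H3-3A, was at most 1.16 FPKM in all 4 libraries and was not called.

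H2AX encodes the H2A variant whose phosphorylated form marks DNA double-strand breaks, from a gene of 1 exon on chromosome 11 (119093874 to 119095465, minus strand). Its transcripts are known to end either in a stem-loop or in a poly(A) tail. H2AX was at 214 and 196 FPKM in control, against 791 and 821 FPKM after GNE-987. It was the most abundant variant gene of the control libraries, and with GNE-987 its range overlapped that of H1-10. The mean rose 3.93-fold, from 205 ± 12.7 to 806 ± 21.1 FPKM (log2 1.98, SE 0.0608, adjusted P = 0.00018, limma).

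This rise depended on the scaling. H2AX stayed called by total reads, at log2 1.19, but was at 0.12 when scaled to GAPDH and at 0.15 after quantile normalization, which does not pass the fold limit. Above the median of all genes it stood at 1.80, 1.76, 1.72 and 0.39 on the deposited, total, GAPDH and quantile scales. DPAGT1, a gene next to H2AX, was at 15.5 and 14.4 FPKM in control and 10.2 and 10.1 FPKM with GNE-987 and was not called.

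Of 14 tested genes linked to H2AX, 2 were higher (14.3%, beside 33.6% of all tested genes) and 4 lower (28.6%, beside 24.9%). Their median log2 fold change was -0.30, beside 0.17 for all tested genes. The listed genes are protein-coding, and among all protein-coding genes 24% were higher and 31.7% lower, with a median of -0.29. The list was thus close to protein-coding genes in its median and in its share of lower genes. RNF168, a ubiquitin ligase recruited to broken DNA, rose from 8.47 and 8.07 to 39.4 and 39.8 FPKM (log2 2.24, adjusted P = 0.00013, limma), but was not called when scaled to GAPDH (0.40). PPM1D, the phosphatase that removes the mark, rose from 4.62 and 4.66 to 11.4 and 10.3 FPKM (log2 1.2, but -0.62 when scaled to GAPDH). RNF8, which acts upstream of RNF168, fell by 1.99 on the log2 scale, and MDC1, which binds phosphorylated H2AX, fell by 1.76. SMARCA5, a remodeling ATPase, fell by 1.08, and PRKDC, a kinase that phosphorylates H2AX, fell by 1.03. The call of PRKDC was lost without control replicate 2 (-0.85) and without GNE-987 replicate 1 (-0.98, unadjusted P = 0.0706, limma) or 2 (-1.07, unadjusted P = 0.061, limma). The kinases ATM and ATR were not called.

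H2AZ1 and H2AZ2 encode H2A.Z proteins that differ in a few residues and flank the start sites of active genes, and both genes have 5 exons. H2AZ1 (chromosome 4, 99948086 to 99950355, minus strand) measured 157 and 147 FPKM in control, against 190 and 181 FPKM after GNE-987. H2AZ2 (chromosome 7, 44826791 to 44848087, minus strand) measured 32.2 and 30.6 FPKM in control, against 57.4 and 52.8 FPKM after GNE-987. The groups did not overlap for either gene, but neither passed the fold limit, at log2 0.29 (SE 0.0538, adjusted P = 0.0108, limma) for H2AZ1 and 0.81 (SE 0.0639, adjusted P = 0.000957, limma) for H2AZ2.

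H2AZ1 was close to the median gene on most scales. It stood 0.11, 0.07 and 0.03 above the median of all genes on the deposited, total and GAPDH scales and at -0.77 after quantile normalization, and its log2 fold change itself was 0.29, -0.50, -1.57 and -1.01 on these scales. It was called lower by GAPDH and by quantiles. H2AZ2 stood 0.64, 0.60, 0.55 and 0.57 above the median of all genes, and its own log2 fold change was 0.81, 0.02, -1.04 and 0.33.

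H2AZ1 was 4.87 and 4.83 times H2AZ2 in control and 3.31 and 3.42 times H2AZ2 with GNE-987. The log2 ratio differed by -0.53 between groups, with no overlap (exact permutation P = 0.333, the smallest possible). The genes share 80.5% of their 384 coding bases, with a longest identical run of 23 bases. Reads of 8 H2A.Z pseudogenes came to between 1.39% and 2.63% of the reads of H2AZ1 and H2AZ2.

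The noncoding gene H2AZ2-DT begins 328 bases from the start of H2AZ2 and runs the opposite way. It was at 0.24 and 0.125 FPKM in control, which is 2 reads and 1 read, and at 36 and 37.2 FPKM with GNE-987, 109 and 119 reads (log2 7.05, SE 0.233, adjusted P = 0.000195, limma). This noncoding gene passed the filter only through the GNE-987 libraries, so it had to differ. H2AZ2-DT thus rose from near absence to below the level of H2AZ2, whose own change on the same strand-blind libraries stayed under 2-fold. DNAJB14, next to H2AZ1, was not called.

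MACROH2A1 and MACROH2A2 encode H2A variants with a large extra domain, the macrodomain, and have 9 exons each. MACROH2A1 (chromosome 5, 135334381 to 135399914, minus strand) measured 11 and 10.9 FPKM in control, against 16.9 and 16 FPKM after GNE-987. The mean was 1.5-fold higher, below the fold limit (log2 0.58, SE 0.0569, adjusted P = 0.00161, limma), and the log2 fold change was -0.20 by total reads and -1.26 by GAPDH. MACROH2A2 (chromosome 10, 70052544 to 70112282, plus strand) was at 0.11 and 0.0228 FPKM in control, against 3.50 and 4.69 FPKM after GNE-987.

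MACROH2A2 was the least abundant tested variant in both groups and had the largest log2 fold change, 4.69 (SE 0.367, adjusted P = 0.000938, limma). Its control values stood for 40 and 8 reads at the possible length nearest the annotated one. As few as 5 reads and 1 read could also lie behind them, so the size of the rise is poorly known. The log2 fold change ran from 2.25 with a pseudocount of 1 to 6.02 with a pseudocount of 0.01, from 4.31 to 5.08 when a library was left out, and from 3.40 to 4.69 over the scalings, and the gene was called in every one of these fits. AIFM2, which overlaps MACROH2A2 on the opposite strand, went from 8.22 and 8.07 FPKM to 12.7 and 14.1 FPKM (log2 0.71) and was not called, and without strand the reads of the overlap cannot be told apart.

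MACROH2A1 was 100 and 477 times MACROH2A2 in control and 4.83 and 3.41 times with GNE-987. The difference of the log2 ratio, -5.75, was far larger than those of the H3.3 and H2A.Z pairs, and the spread between the control libraries was also large (SD 1.59). The exact permutation test gave P = 0.333, the smallest possible.

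H2AJ encodes an H2A variant known from senescent cells and from some epithelia, on chromosome 12 (14774405 to 14778002, plus strand). No read was counted for it in control, where it was listed at 0, and GNE-987 gave 0.392 and 0.27 FPKM, which is 11 and 8 reads. On the deposited scale its mean with GNE-987 was 8.35 times a floor of 3 reads in each control library. This floor covers counting error in control only, not that of the 11 and 8 treated reads. Scaling to total reads moves a log2 fold change by -0.787, and scaling to GAPDH by -1.855. H2AJ was the lowest variant in every library. With no filter it was called higher as well (adjusted P = 0.0103, limma), in a fit that it entered only through the GNE-987 libraries.

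Among themselves, the variants changed places. In control the order by mean FPKM was H2AX, H2AZ1, H3-3A, H3-3B, H1-10, H2AZ2, MACROH2A1, MACROH2A2 and H2AJ, with no overlap between neighbours. With GNE-987 H1-10 moved up next to H2AX, whose range it overlapped, and H2AZ1 moved behind H3-3A and H3-3B. H2AX made up 51.7% and 50.9% of the summed FPKM of the H2A variants in control and 74.7% and 76.3% with GNE-987, while H2AZ1 went from 37.9% and 38.3% to 17.9% and 16.8%. H1-10 made up 9.50% and 9.52% of the sum over all 9 genes in control and 25.8% and 27.9% with GNE-987. These shares are within a library and do not depend on a factor that multiplies the whole library.

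**Figure D2:**
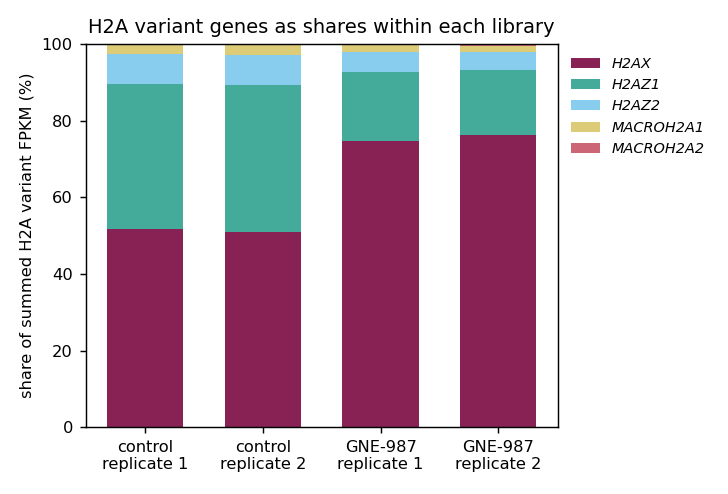
Share of each gene in the summed FPKM of the H2A variant genes, in percent, with 1 stacked bar per library. H2AX (bottom) takes 51.7% and 50.9% in control and 74.7% and 76.3% after GNE-987, and H2AZ1 takes 37.9% and 38.3% and then 17.9% and 16.8%. H2AJ, at most 0.037%, is not drawn.

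The sum over the 9 genes went from 690 and 671 FPKM to 2930 and 2980 FPKM. The replication-dependent histone genes of the clusters are normally read from mRNA without a poly(A) tail. Of 61 tested, 60 were higher (98.4%, beside 33.6% of all tested genes), with a median log2 fold change of 4.71. Some of these, such as H3C11 and H4C6, were listed at 0 in both control libraries. Such genes passed the filter only through the GNE-987 libraries, so they had to differ, and the count and the median include them. The sum over the replication-dependent genes went from 2900 and 2990 FPKM to 16400 and 16600 FPKM. The median of the 8 tested variants, 5 of them called, was the smaller one, a difference that has no test here. The kit named in the labels selects poly(A) RNA in its usual protocol, and the part of RNA selection in these changes was not tested.

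Gene structure was set beside the direction as well. Protein-coding genes with 1 exon, histone genes left out, were higher in 95 of 239 (39.7%) and lower in 71 (29.7%). Their median log2 fold change was 0.23. Those with over 1 exon were higher in 2481 of 10694 (23.2%) and lower in 3415 (31.9%), with a median of -0.31. Among genes of 1 exon at 50 FPKM or more in control, histone genes left out, 15 of 18 were higher. H1-10 and H2AX have 1 exon and were both called, and H3-3A and H3-3B, with 4 exons, were called too. Among all protein-coding genes at 50 FPKM or more in control, 37.2% were higher, with a median of 0.50. The part of exon number in the results on H1-10 and H2AX was not tested.

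**Figure D3:**
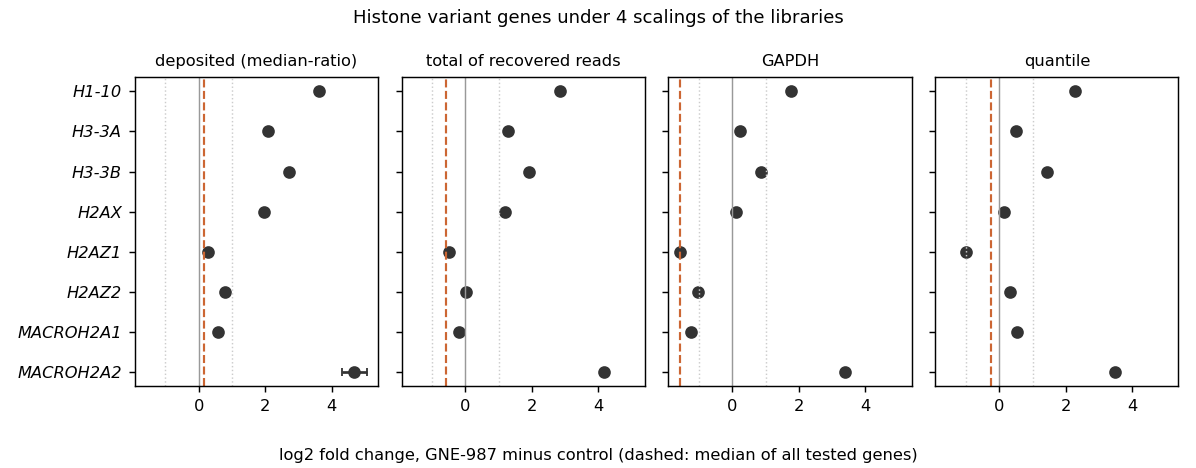
Log2 fold change of the 8 tested variant genes under 4 scalings of the libraries, with standard errors for the deposited scale. The solid line marks 0, dotted lines mark 2-fold, and the dashed line is the median of all tested genes (0.17, -0.58, -1.59 and -0.24 from left to right). H1-10 and MACROH2A2 stay beyond 2-fold in all panels, and H2AZ1 falls below 0 in the last 3.

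Further replication-independent variants were mostly low. Of 17 such genes listed, 16 were found in the table and 3 were above the filter. CENPA, the H3 variant of centromeres, rose from 15.9 and 14.2 FPKM to 33.4 and 31.5 FPKM (log2 1.10, adjusted P = 0.00078, limma, but -0.74 when scaled to GAPDH). H3-5, a close relative of the H3.3 genes, was at 0.0822 and 0 FPKM in control, against 1.02 and 1.07 FPKM after GNE-987, on 9 and 10 reads (log2 3.08, adjusted P = 0.0046, limma), and it too passed the filter only through its high group. H2BK1, an H2B variant, was at 0.563 and 0.586 FPKM in control, against 2.58 and 0.245 FPKM after GNE-987, so that its treated libraries lay on both sides of the controls, and it was not called.

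The genes that place and remove the variants went mostly the other way. Of 30 genes of the H2A.Z exchange, removal and acetylation complexes, 2 were higher (6.67%, beside 33.6% of all tested genes) and 19 lower (63.3%, beside 24.9%), with a median log2 fold change of -1.16. Among protein-coding genes 24% were higher and 31.7% lower, with a median of -0.29. The count of lower genes includes some that passed the filter only through the control libraries. YEATS4, a subunit shared by the SRCAP and TIP60 complexes, went from 14.2 and 12.8 FPKM to 2.72 and 1.26 FPKM (log2 -2.80, adjusted P = 0.00448, limma). MRGBP, of the TIP60 complex, fell by 2.70 on the log2 scale, ACTR5, of INO80, fell by 2.44, and VPS72, which binds H2A.Z directly, fell by 2.36. ANP32E, the chaperone that removes H2A.Z, fell from 33.9 and 34.9 to 12.6 and 12.5 FPKM and was named after its values were seen.

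Both increases in the H2A.Z list were subunit genes. TFPT, of INO80, rose from 6.76 and 7.51 to 22.1 and 24.5 FPKM (log2 1.69), and ZNHIT1, of SRCAP, from 11.9 and 12.8 to 25.8 and 24.4 FPKM (log2 1.02), but at -0.15 and -0.83 both turned negative when scaled to GAPDH. ZNHIT1 also lost its call without control replicate 1 (0.97) or GNE-987 replicate 1 (0.98).

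Of 16 chaperones and readers of H3.3, 2 were higher (12.5%, beside 33.6% of all tested genes) and 7 lower (43.8%, beside 24.9%), with a median log2 fold change of -0.42. Protein-coding genes, 24% of them higher and 31.7% lower, had a median of -0.29, not far from that of this list. DAXX, the chaperone that places H3.3 at repeats with ATRX, went from 39.6 and 35.5 FPKM to 4.31 and 5.69 FPKM (log2 -2.89, adjusted P = 0.000445, limma). ZMYND11, a reader of methylated H3.3, fell by 2.38 on the log2 scale, the remodeler CHD1 fell by 1.95, and DEK, a histone-binding protein, fell by 1.70. HIRA, the chaperone of H3.3 at transcribed genes, was at 15.2 and 12.9 FPKM in control, against 11.9 and 12.5 FPKM after GNE-987 and was not called.

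UBN1, a partner of HIRA, rose from 13.6 and 16.2 to 37.6 and 37.4 FPKM (log2 1.33, but -0.51 when scaled to GAPDH). ASF1B, an H3-H4 chaperone linked to cell division, rose from 32.5 and 29.3 to 175 and 182 FPKM (log2 2.53, adjusted P = 0.00015, limma), but was not called when scaled to GAPDH (0.68). Over both lists, 4 of 46 genes were higher and 26 lower, while 33.6% of all tested genes and 24% of protein-coding genes were higher and 24.9% and 31.7% lower.

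**Figure D4:**
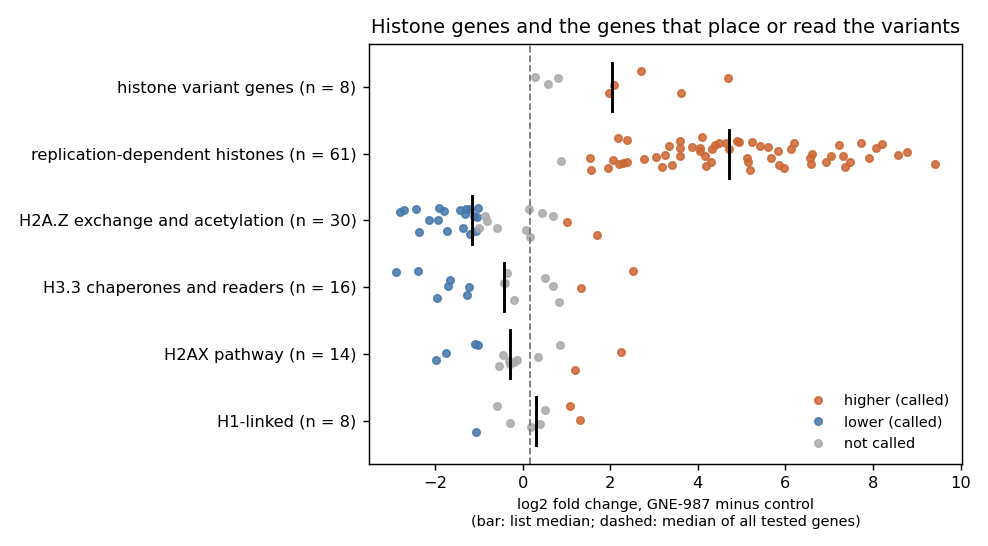
Log2 fold change with GNE-987 for tested genes of 6 lists, 1 point per gene, orange where called higher, blue where called lower and grey where not called. Vertical bars are list medians (2.03 for the variants, 4.71 for replication-dependent histones, -1.16 for H2A.Z exchange and acetylation, -0.42 for H3.3 chaperones and readers), and the dashed line is the median of all tested genes, 0.17.

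Of 8 genes that compete with or chaperone H1, 2 were higher (25%) and 1 lower (12.5%), beside 33.6% and 24.9% of all tested genes, with a median of 0.30 beside 0.17. Protein-coding genes had a median of -0.29, with 24% higher and 31.7% lower. NAP1L1, a nucleosome assembly protein, rose from 20.5 and 20.6 to 52.5 and 50.7 FPKM (log2 1.32, but -0.53 when scaled to GAPDH), and HMGN2, a nucleosome-binding protein, from 119 and 115 to 244 and 245 FPKM (log2 1.07, but -0.79 by GAPDH and -0.14 by quantiles). PTMA, an acidic protein that binds H1, fell from 206 and 240 to 104 and 109 FPKM (log2 -1.06), a call lost without control replicate 2 (-0.95). Of 3 genes linked to macroH2A, PARP9 fell by 2.36 on the log2 scale and was named after its values were seen, and PARP1 and HELLS were not called. PARP9 was at 0.938 and 1.03 FPKM in control and at 0.107 and 0.114 FPKM with GNE-987, on 8 and 9 reads. It passed the filter only through the control libraries, so it had to differ.

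The genes most like a variant in pattern were sought among 3397 protein-coding genes averaging 10 FPKM or more, by the distance of centred log2 values over the 4 libraries. For MACROH2A2, the variant with the largest increase, they were DRD4 (distance 0.337), C12orf57 (0.383) and TUFT1 (0.49). For H2AZ1, with the smallest change, since none fell, they were CDV3 (0.0163), UBXN6 (0.0243) and CCDC47 (0.0356). With 4 libraries in 2 groups, such likeness is mainly a shared difference between the groups.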

How the data were processed

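RNA-seq libraries of NB4-labelled cells (2 control, 2 GNE-987) were grouped by their sample labels. Per the submitters' processing notes, the authors aligned reads with HISAT2 2.0.5 to hg38, and they deposited FPKM values per gene. The read counter and annotation are not given in the sources used here. The kit was TruSeq RNA on total RNA. No per-sample column was left unused (0). Of the 58735 Ensembl identifiers, 58207 were matched to GENCODE release 44.

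Values were analysed as log2(FPKM + 0.1) for 16668 genes averaging 0.5 FPKM or more, in limma 3.58.1 (R 4.3.3) with an intensity trend and no replicate block. Fold changes on this scale understate the change of low genes. Whole reads were recovered from the steps of the values with a tolerance of 0.01: 17431 of the 32895 genes above 0 (53.0%) were whole at their annotated length and 15328 at a searched length, a weaker basis. They gave the depth and 1 scaling alternative and were not used for a count test. For some genes more than 1 set of whole reads was possible. For MACROH2A2 the control reads are printed both from the set at the length nearest the annotated one and from the smallest set.

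The members, gene lists and tests were chosen with earlier results of these data known. Named genes were all variants, up to 4 called genes per direction and list averaging 1 FPKM or more, listed further variants above 0.5 FPKM, neighbours within 2 kb (1 of them is not reported here), the 2 highest processed pseudogenes, GAPDH and 3 genes of like pattern. The symbol H4-16 was read as H4C16 after the data were seen, because it is a shared synonym of all H4 genes. Ratios were tested by two-sided exact permutation. Deviations from the group means were uncorrelated between libraries sharing a number (0.00537), so numbers were not treated as pairs. HIRA, ANP32E, ATM, ATR, PARP1, HELLS and PARP9 lie outside this rule and were picked with their values in view. The alternatives were other scalings, pseudocounts, filters, Benjamini-Hochberg adjustment, limma's treat at 2-fold, the replicate block and leaving out each library. The limma step and the read recovery were tested on simulated data.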

Additional observations from a re-analysis of the deposited data

How the results depend on the processing

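For the variants, with another scaling, the count of higher genes went from 5 to 2 with GAPDH and 3 with quantile normalization, the count of lower genes from 0 to 3 and 1, and the median log2 fold change from 2.03 to 0.17 with GAPDH, 0.51 with quantiles and 1.24 with total reads. The cause was not tested. The direction turned for H2AZ1 (-1.57 with GAPDH, -1.01 with quantiles, -0.50 with total reads), H2AZ2 (-1.04 with GAPDH) and MACROH2A1 (-1.26 with GAPDH, -0.20 with total reads). With GAPDH it also turned for CENPA (-0.74), H2BK1 (-1.05), HMGN2 (-0.79), NAP1L1 (-0.53), PPM1D (-0.62), TFPT (-0.15), UBN1 (-0.51) and ZNHIT1 (-0.83), and with quantiles for H2BK1 (-0.50), HMGN2 (-0.14) and GAPDH itself (-0.11). H2BK1 was also at -0.15 with total reads and -0.97 without GNE-987 replicate 1, and was called higher, at 1.99, without GNE-987 replicate 2.

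Of the further variants, 2 were higher on the deposited scale, 1 with GAPDH, quantiles, total reads, a pseudocount of 1, a mean of at least 1 FPKM or the test against a 2-fold change, and 7 with no filter. The further variants that were tested only without the filter were all near 0 in control. For that fit the share of all genes called is not given here, so the count of 7 has no background. Leaving out a library gave 2 to 3 higher. Of the placement genes, 4 were higher, but 0 with GAPDH and 1 with total reads, and 26 were lower, but 41 with GAPDH. The calls of CENPA, HMGN2, PRKDC, PTMA, SMARCA5, UNK and ZNHIT1, with log2 fold changes near the limit, did not pass the test against a 2-fold change. The log2 fold change of H3-5 was 0.98 with a pseudocount of 1 and 5.12 with 0.01. The macroH2A log2 ratio was -5.75, or -4.11 with a pseudocount of 0.1, and -6.88 to -4.63 when a library was left out.

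None of the other alternatives changed a call of the 8 tested variants. With no filter H2AJ was tested as well and the count of higher variants was 6. H2AJ had no read in control, so it entered that fit only through the GNE-987 libraries. The share of all genes called in that fit is not given here, so the count has no background. In a fit with a replicate block, 5 were higher and 0 lower, and the block changed no other call. Leaving out each library in turn gave 5 higher in each case and a median of 2.02 to 2.03. A lone library in a group was assumed to vary like the other group. Depth limits H2AJ and MACROH2A2, the variants at or under 40 reads in control.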
